A study of Mus musculus with 21 samples.

Results

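Mitosis genes are treated here as a fixed list of 35 genes named for their roles: G2/M kinases and cyclins, spindle, kinetochore and cytokinesis factors, and condensin. They were found by gene symbol among the 51467 genes of the count table by a rule that uses roles and no measured value, although earlier results of these data were known when the list was drawn up. All 35 had 3 or more CPM (counts scaled to library size) in 3 or more libraries, as did 14518 genes in all. The experiment compared wild-type mouse embryonic stem cells (ESCs) of the V6.5 line with *Ddx6* KO cells made from them by CRISPR-Cas9, all grown in serum with LIF and 2i. DDX6 is a DEAD box RNA helicase of P-bodies that binds decapping and deadenylation factors, and nascent and total RNA were compared between the genotypes. There were 3 wild-type cultures and 4 *Ddx6* KO cultures, the latter being 2 cultures of each of 2 clones. Every culture was exposed to 500 µM 4-thiouridine (4sU) for 30 min, and its RNA gave both a 4sU library of nascent transcripts and a total RNA library after rRNA depletion. The KO genotype rests on 2 clones from one parental line. Nothing in the labels says whether cultures of a clone were grown at separate times, so p values measure the spread between these cultures.

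Mitosis is driven by the kinase CDK1 with cyclins A2, B1 and B2, helped by the Polo and Aurora kinases. The spindle checkpoint holds back the anaphase promoting complex (APC/C) until kinetochores are attached, and APC/C with CDC20 then ends mitosis. Most of these genes are transcribed in a wave in late S and G2 phase, when the MuvB complex with B-MYB and FOXM1 acts through the cell cycle genes homology region (CHR) of their promoters, often near CCAAT boxes bound by NF-Y. Mouse ESCs divide rapidly and spend little of their cycle in G1. In bulk RNA, fewer cells in G2 or mitosis and less RNA of these genes per cell cannot be told apart.

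Levels are given as CPM scaled by the trimmed mean of M values (TMM), a normalization over all 14 libraries. Each 4sU library held 2441639 to 3570192 counts and each total library 5724179 to 7369651. The targeted gene, *Ddx6*, had 333, 383 and 391 CPM in wild-type total RNA, 57.3 and 67.7 CPM in clone 1 and 23.1 and 21.5 CPM in clone 2, so its mRNA fell (log2 −3.12 ± 0.32 SE, edgeR adjusted p = 9.22e-06). Its nascent RNA was 242 to 270.4 CPM in wild type and 145 to 231 CPM in KO cultures, without overlap, and was not called (log2 −0.41 ± 0.32, edgeR adjusted p = 0.348). ESC markers were present in both genotypes, and their summed total RNA was 5342 to 5481 CPM in wild type and 5121 to 5297 CPM in KO (10 of 10 markers passed the filter). The sum hides changes in both directions. In mRNA 4 of the 10 were called higher and 4 lower in KO, where 19.5% and 31% of all genes were. In nascent RNA it was also 4 and 4, beside 20.6% and 21% of all genes. The 10 fibroblast feeder markers summed to 5 to 8.42 CPM in wild type and 13 to 15.8 CPM in KO, with *Postn*, *Dcn* and *Fap* at 0 counts in all total libraries. The 6 primed or mesoderm markers summed to 33.4 to 40.4 CPM in wild type and 16.9 to 23.2 CPM in KO, the 6 endoderm markers to 8.02 to 13.1 and 10.5 to 15.4 CPM, and the 6 trophoblast markers to 83.5 to 89.9 and 107 to 122 CPM. The part of such cells in the mitosis gene results was not tested.

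Promoters of the mitosis genes shared short motifs that the choice of genes did not use. RefSeq promoter windows (GRCm38.p6, 250 bases before to 50 after the start) were matched for 29 of the 35 genes; *Ccna2*, *Aurkb*, *Incenp*, *Tpx2*, *Kif20a* and *Smc4* were not matched. The CHR was searched as TTTGAA on either strand (TTCAAA on the other) and as TTTAAA, which reads the same on both. One of them lay within 50 bases of the start in 22 of 29 windows, or 75.9%, against 8.24% of the 27025 genes with a window. Anywhere in the window, TTTGAA was found in 22 and TTTAAA in 9 of the 29 (18.1% and 13.2% of all genes), and CCAAT, on either strand, in 23 of 29 (37.9% of all). A match is a run of letters and not a measured binding site. The following 10 windows of 30 bases, written 5′ to 3′ on the strand of the gene with the motif in capitals, were picked with the values known: 8 belong to genes that fell in both nascent RNA and mRNA, and the last 2 to genes that fell in mRNA and were not called in nascent RNA.
Plk1, chr7:122159453-122159482, plus strand: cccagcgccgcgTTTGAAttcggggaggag
Aurka, chr2:172370521-172370550, minus strand: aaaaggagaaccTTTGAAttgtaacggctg
Cenpa, chr5:30666890-30666919, plus strand: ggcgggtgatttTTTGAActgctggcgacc
Cdc20, chr4:118437344-118437373, minus strand: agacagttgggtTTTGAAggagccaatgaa
Ccnb1, chr13:100786511-100786540, minus strand: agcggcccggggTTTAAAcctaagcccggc
Ccnb2, chr9:70421533-70421562, minus strand: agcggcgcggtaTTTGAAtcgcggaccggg
Ube2c, chr2:164769888-164769917, plus strand: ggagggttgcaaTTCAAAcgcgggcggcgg
Top2a, chr11:99024195-99024224, minus strand: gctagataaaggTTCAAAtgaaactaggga
Anln, chr9:22389161-22389190, minus strand: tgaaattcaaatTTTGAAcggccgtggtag
Hmmr, chr11:40733412-40733441, minus strand: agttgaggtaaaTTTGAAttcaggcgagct
*Anln* and *Hmmr* thus carry the same letters as *Plk1* and *Aurka*. Of the 7 matched genes without either form within 50 bases of the start, 3 were higher in *Ddx6* KO. These are *Mad2l1*, *Nuf2* and *Ncapd2*, the only mitosis genes that rose in nascent RNA and mRNA. The others are *Cks2*, *Birc5* and *Bub1*, which fell in nascent RNA, and *Kif2c*, which fell in mRNA. A form lay within 50 bases in 14 of 17 matched genes that fell in nascent RNA and in 8 of 9 not called. In mRNA it did so in 19 of 21 that fell and in 3 of 5 not called. A link between motif and change was not tested. *Mad2l1* and *Ncapd2* also lie on chromosome 6, where 431 of 735 tested genes were called higher in nascent RNA and 431 in mRNA. Over all genes the shares called higher were 20.6% and 19.5%. *Mad2l1* and *Nuf2* had none of these motifs anywhere in the window, while *Ncapd2* had TTTGAA 123 bases before its start.

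In wild-type ESCs the mitosis genes were well expressed. Scaled to the exon length in the count table, their median was 41.3 CPM per kb in 4sU RNA and 75.9 CPM per kb in total RNA, against 8.26 and 8.15 CPM per kb over all genes tested. By this length, levels per kb in 4sU RNA ran from 16.1 for *Ttk*, the MPS1 checkpoint kinase, to 161 for *Aurka*, the centrosomal Aurora kinase. For some genes it is much longer than the principal transcript (8032 bases for *Mad2l1*), so the order per kb depends on the length used. In total RNA the highest per kb was *Top2a*, which encodes DNA topoisomerase II alpha, at 369.8, and the lowest was *Cks2*, a small CDK-binding subunit, at 5.03. Summed over the 35 genes, 4sU RNA was 7024, 7096 and 7488 CPM in wild type and 5611, 5891, 6014 and 5415 CPM in the KO cultures. Summed total RNA was 11070.3, 11506 and 11558 CPM in wild type and 9396, 9312, 9176 and 9114 CPM in KO. In both assays every KO culture lay below every wild-type culture.

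Loss of *Ddx6* was accompanied by lower nascent RNA and lower mRNA of most mitosis genes. With edgeR's quasi-likelihood test and an adjusted p below 0.05 over all 14518 genes, 21 of 35 fell in nascent RNA and 3 rose, while 11 were not called. Of all genes tested, 21% were called lower and 20.6% higher. In mRNA, 27 of 35 fell and 3 rose, with 5 not called, where 31% of all genes were called lower and 19.5% higher. The median log2 fold change of the mitosis genes was −0.22 in nascent RNA and −0.29 in mRNA, beside 0.00106 and −0.099 for all genes tested. Most changes were modest: under the study's stricter rule, which also asks for an absolute log2 fold change above 1, only *Plk1* and *Aurka* remained, both in nascent RNA (5.79% of all genes lower and 5.14% higher under that rule), and no mitosis gene in mRNA (4.86% and 5.28%). Scaling by library size alone raised the median of all genes to 0.206 in nascent RNA and 0.0563 in mRNA and split all nascent calls into 5274 higher and 1840 lower. The mitosis genes then counted 8 higher and 11 lower in nascent RNA and 4 and 18 in mRNA, and their median relative to all genes was −0.22 and −0.19, against −0.22 and −0.20 with TMM over all libraries. TMM within each assay split all mRNA calls into 3606 higher and 3495 lower, 50.8% higher against 38.6% with TMM over all libraries, and gave 3 and 21 mitosis genes.

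**Figure D1:**
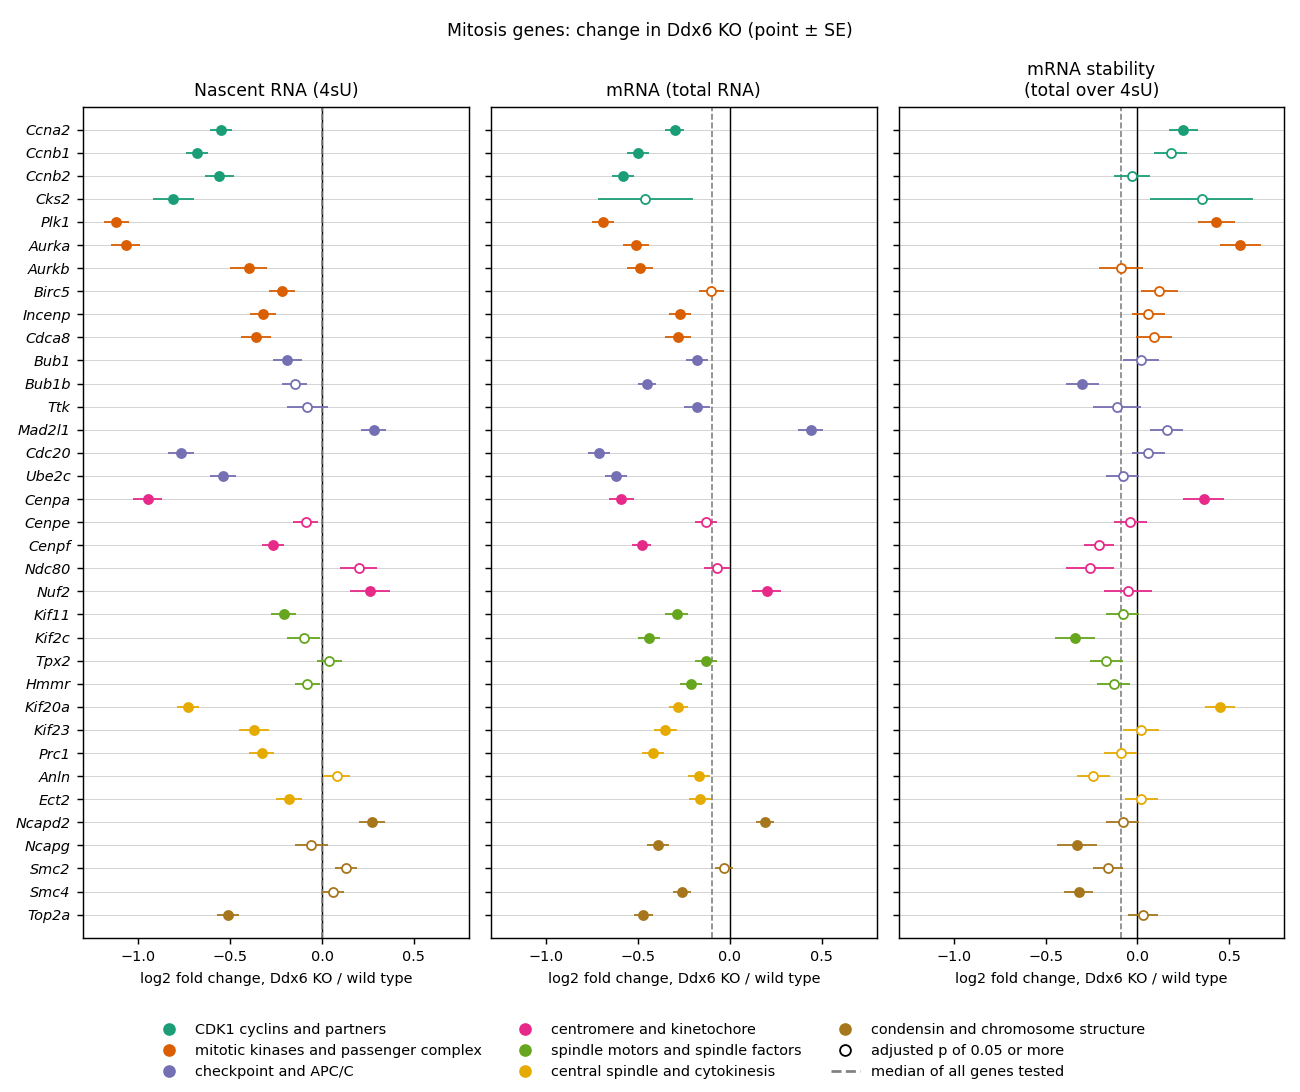
Change of each mitosis gene in *Ddx6* KO. The 3 panels plot the log2 fold change of KO over wild type (x axis, point ± SE from the edgeR fit) for nascent RNA, mRNA and total over 4sU, with genes on the y axis in role order. Filled points have an adjusted p below 0.05, and the dashed line is the median of all genes tested. Filled points lie left of 0 for 21 genes in nascent RNA and 27 in mRNA, and right of 0 for 3 genes in each. In total over 4sU, 5 filled points lie right of 0 and 4 left.

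The separation also held culture by culture. In nascent RNA, all 4 KO cultures lay below all 3 wild-type cultures for 20 mitosis genes and above for 2 (*Mad2l1* and *Ncapd2*), where 21.1% and 20.5% of all genes did so. In total RNA, 28 lay below and 3 above, against 32% and 20.4% of all genes. The 4 that overlapped in total RNA were *Birc5*, *Bub1*, *Ndc80* and *Smc2*.

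**Figure D2:**
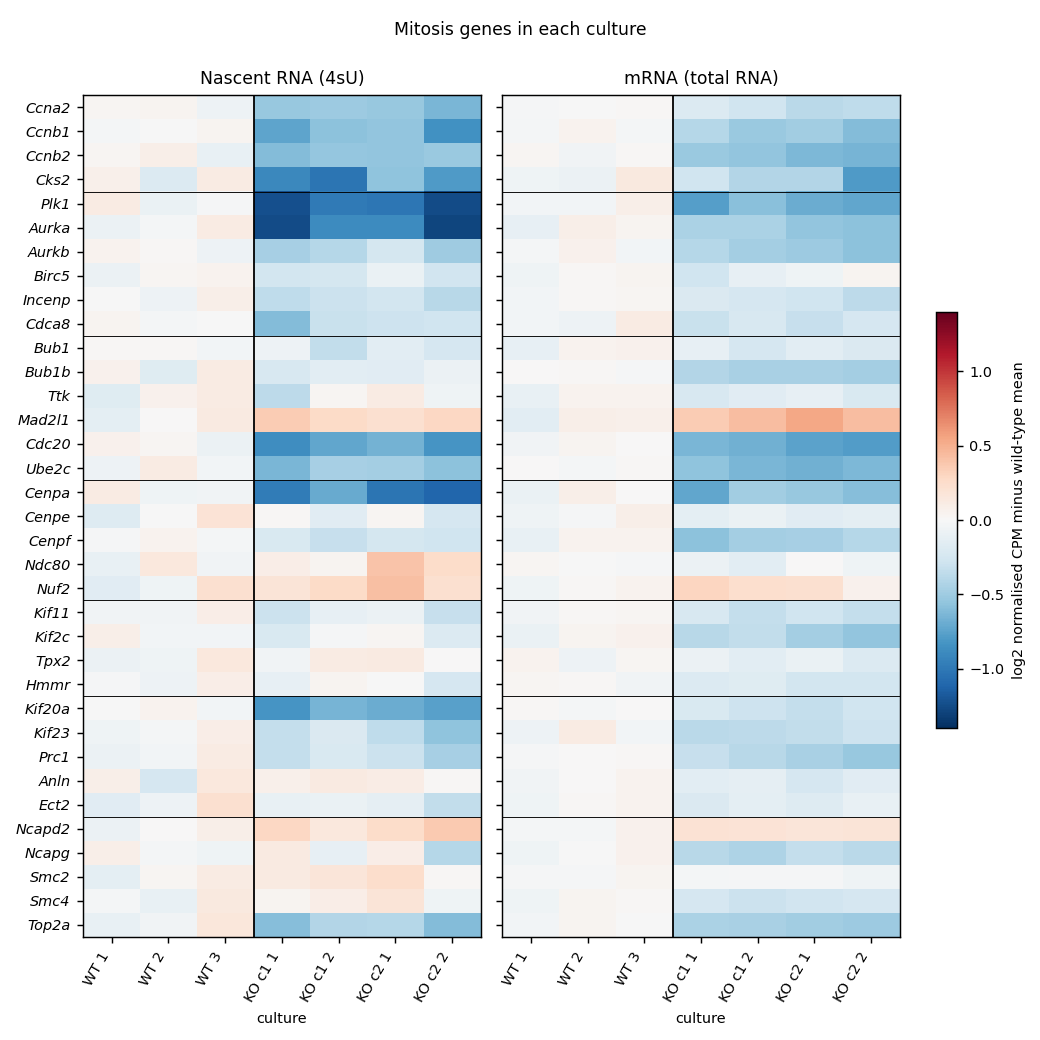
Level of each mitosis gene in each culture. Color gives log2 CPM (TMM-scaled) minus the wild-type mean, for nascent RNA on the left and total RNA on the right, with 7 cultures as columns (c1 and c2 are the KO clones) and role groups divided by lines. The 4 KO columns are blue for most genes, darkest for *Plk1*, *Aurka* and *Cenpa* in nascent RNA, and red for *Mad2l1* and *Ncapd2* in both assays.

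The cyclins and partners of CDK1 all fell in nascent RNA. In the order wild type 1 to 3, then clone 1 and clone 2 with 2 cultures each, *Ccnb1*, which encodes cyclin B1, had 365, 371, 384, 224, 250.1, 255 and 208 CPM in 4sU RNA, so that the groups were well apart. Its total RNA was 165, 174 and 165 CPM in wild type and 127, 117, 120.1 and 110.4 CPM in KO, again with no overlap. The nascent log2 fold change was −0.68 ± 0.06 (SE; edgeR adjusted p = 2.43e-13) and that of mRNA −0.50 ± 0.06 (edgeR adjusted p = 1.62e-09). *Ccna2*, encoding cyclin A2, fell by 0.55 in nascent RNA and by 0.30 in mRNA on the log2 scale, and *Ccnb2*, encoding cyclin B2, fell by 0.56 and 0.58. *Cks2* fell by 0.81 in nascent RNA, from 86.8, 72.5 and 89.3 CPM to 44.1, 40.6, 56 and 47.6 CPM. Its total RNA was only 3.28 to 3.83 CPM in wild type and 2 to 2.86 CPM in KO, as few as 13 counts in a library, and its mRNA change of −0.46 ± 0.26 was not called (edgeR adjusted p = 0.13). Of the 50-base pieces of the *Cks2* transcript, 29.7% also matched another annotated transcript within 2 mismatches, and reads with more than one match were dropped, so its level is uncertain.

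All 6 genes of the mitotic kinases and passenger complex fell in nascent RNA, and 5 in mRNA. *Plk1*, the Polo-like kinase of mitotic entry, had 239, 206 and 217 CPM in wild-type 4sU RNA and 93.7, 111, 109 and 92.2 CPM in KO. Its total RNA was 174, 175 and 189 CPM in wild type and 105, 119.7, 111 and 108 CPM in KO. No KO culture reached any wild-type culture in either assay. Nascent RNA fell by 54.1% (log2 −1.12 ± 0.07, edgeR adjusted p = 2.34e-19) and mRNA fell by 38.1% (log2 −0.69 ± 0.06, edgeR adjusted p = 9.67e-14). *Aurka* had 294, 305 and 337 CPM in wild-type 4sU RNA and 131, 169, 169.5 and 128 CPM in KO, and 223 to 257 CPM against 163 to 178 CPM in total RNA. Its nascent log2 fold change was −1.07 ± 0.08 and its mRNA log2 fold change −0.51 ± 0.07. The chromosomal passenger complex, which corrects kinetochore attachments, changed less. Its kinase *Aurkb* fell by 0.40 in nascent RNA and 0.49 in mRNA on the log2 scale, the scaffold *Incenp* fell by 0.32 and 0.27, and the borealin gene *Cdca8* fell by 0.36 and 0.28. *Birc5*, encoding survivin, fell by 0.22 in nascent RNA, where its call held in 15 of 19 alternative fits, while its mRNA change of −0.10 ± 0.07 was not called. With library size only, *Aurkb*, *Birc5*, *Incenp* and *Cdca8* lost their calls in nascent RNA, and *Incenp* and *Cdca8* lost theirs in mRNA.

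Of the 6 checkpoint and APC/C genes, 3 fell and 1 rose in nascent RNA, and 5 fell and 1 rose in mRNA. Among all genes tested, 21% fell and 20.6% rose in nascent RNA, and 31% fell and 19.5% rose in mRNA. *Cdc20*, the mitotic APC/C activator, had 209, 205 and 189 CPM in wild-type 4sU RNA and 109.8, 121, 127 and 113 CPM in KO, and in total RNA 309.7, 330.5 and 323 CPM against 206, 201, 191 and 187 CPM. It fell by 0.77 in nascent RNA and by 0.71 in mRNA on the log2 scale, the mRNA fall being within the SEs of that of *Plk1*. *Ube2c*, the ubiquitin conjugating enzyme of APC/C, fell by 0.54 and 0.62. *Cdc20* and *Ube2c* are uncertain in level, with 43.3% and 31.3% of their 50-base pieces matching another gene's transcript. The checkpoint kinase *Bub1* fell by 0.19 in nascent RNA (0.01 with library size only) and 0.18 in mRNA on the log2 scale, with the call held in 4 and 12 of 19 alternative fits. *Bub1b*, encoding the checkpoint protein BUBR1, fell by 0.45 in mRNA, from 477, 484 and 469.8 CPM to 359, 348, 348 and 343 CPM, and its nascent RNA overlapped between genotypes, at 106 to 129 CPM in wild type and 102 to 113 CPM in KO. *Ttk* likewise fell by 0.18 in mRNA, with a nascent log2 fold change of −0.08 ± 0.11, and its mRNA call held in 5 of 19 alternative fits. *Mad2l1*, which encodes a checkpoint inhibitor of APC/C-CDC20, had 195, 214 and 234 CPM in wild-type 4sU RNA and 274, 257, 249.9 and 262 CPM in KO, and 109, 128 and 127 CPM against 155, 163, 176 and 163 CPM in total RNA. It rose by a log2 fold change of 0.28 ± 0.07 in nascent RNA (edgeR adjusted p = 0.000606) and 0.44 ± 0.07 in mRNA (edgeR adjusted p = 7.88e-08).

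Of the 5 centromere and kinetochore genes, 2 fell and 1 rose in each assay. The rises are near the all-gene shares of 20.6% in nascent RNA and 19.5% in mRNA. The shares of falls over all genes were 21% and 31%. *Cenpa*, the centromeric histone H3 variant, had 166, 147 and 148 CPM in wild-type 4sU RNA and 78.1, 93.9, 75.6 and 70.9 CPM in KO, and 115 to 129 CPM against 73.8 to 87.2 CPM in total RNA. Its log2 fold change was −0.95 ± 0.08 in nascent RNA and −0.59 ± 0.07 in mRNA. *Cenpf*, a large kinetochore protein, fell by 0.27 in nascent RNA and 0.48 in mRNA on the log2 scale. The kinetochore motor *Cenpe* was not called in either (log2 −0.09 ± 0.07 and −0.13 ± 0.06). Of the NDC80 complex, which binds microtubules, *Ndc80* was not called (0.20 ± 0.10 and −0.07 ± 0.07), while *Nuf2* rose by a log2 fold change of 0.26 ± 0.11 in nascent RNA (edgeR adjusted p = 0.0448) and 0.20 ± 0.08 in mRNA (edgeR adjusted p = 0.0284). Nascent *Nuf2* was 41.9, 44.8 and 54.7 CPM in wild type and 53.2, 56.5, 62.6 and 54.7 CPM in KO, so the groups overlapped there, and in total RNA they did not (57 to 61.8 and 62.2 to 73.3 CPM). *Nuf2* was called in 11 of 19 alternative fits of nascent RNA.

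The 4 spindle factors fell in mRNA, where 31% of all genes did. In nascent RNA 1 of the 4 fell, near the all-gene share of 21%. *Kif11*, the kinesin-5 that separates spindle poles, fell by 0.21 in nascent RNA and 0.29 in mRNA on the log2 scale, with the nascent call held in 11 of 19 alternative fits. The microtubule depolymerase *Kif2c*, the Aurora A activator *Tpx2* and the spindle protein *Hmmr* were not called in nascent RNA (log2 −0.10, 0.04 and −0.08) and fell by 0.44, 0.13 and 0.21 in mRNA, where *Tpx2* was at 0.03 with library size only and kept its call in 3 of 19 alternative fits. *Kif2c* had 185, 202 and 206 CPM in wild-type total RNA and 151, 155, 142 and 135 CPM in KO. The groups were apart in total RNA and overlapped in 4sU RNA, where wild type had 82.4 to 89.9 CPM and KO 73 to 86.4 CPM.

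Among the central spindle and cytokinesis genes, *Kif20a*, the kinesin MKLP2, stood apart. Its 4sU RNA was 559.6, 578 and 544 CPM in wild type and 317, 357, 346 and 331 CPM in KO, and its total RNA 521, 505 and 518 CPM against 443, 420.1, 408 and 425 CPM. Both assays separated the genotypes, and nascent RNA fell by 39.8% where mRNA fell by 17.6%. The kinesin *Kif23* fell by 0.37 in nascent RNA and 0.35 in mRNA on the log2 scale, and the microtubule bundler *Prc1* fell by 0.33 and 0.42. *Ect2*, the exchange factor that activates RhoA for furrowing, fell by 0.18 and 0.16, and its nascent change was 0.03 with library size only. Its call held in 8 of 19 alternative fits of nascent RNA and 5 of 19 of mRNA. *Anln*, the actin-binding scaffold of the furrow, was not called in nascent RNA (log2 0.08 ± 0.07) and fell by 0.17 in mRNA.

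Of the 5 condensin and chromosome structure genes, 1 fell and 1 rose in nascent RNA, and 3 fell and 1 rose in mRNA. The nascent counts are near the all-gene shares of 21% lower and 20.6% higher. In mRNA those shares were 31% and 19.5%. *Top2a* fell by 0.51 in nascent RNA and 0.47 in mRNA on the log2 scale, its total RNA being 1879, 1989 and 1924 CPM in wild type and 1425, 1412, 1376 and 1355 CPM in KO. The core condensin ATPases *Smc2* and *Smc4* were not called in nascent RNA (log2 0.13 ± 0.06 and 0.06 ± 0.06). *Smc4* and the condensin I subunit *Ncapg* fell by 0.26 and 0.39 in mRNA, while *Smc2* total RNA was 432 to 449 CPM in wild type and 421 to 433 CPM in KO and was not called (log2 −0.03 ± 0.05, and 0.13 with library size only). The other condensin I subunit, *Ncapd2*, rose in both: 4sU RNA was 127, 135 and 142 CPM in wild type and 165, 149, 160.5 and 174 CPM in KO, and total RNA 571, 573 and 606 CPM against 671, 667, 657 and 659 CPM. Its log2 fold change was 0.27 ± 0.07 in nascent RNA and 0.19 ± 0.05 in mRNA. *Mad2l1* and *Ncapd2* are the 2 mitosis genes on chromosome 6, whose 735 tested genes had a median log2 fold change of 0.53 in nascent RNA and 0.43 in mRNA, with 431 called higher in each. Over all genes the medians were 0.00106 and −0.099, with 20.6% and 19.5% called higher. The part of chromosome 6 in these 2 rises was not tested. *Nuf2* is on chromosome 1.

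**Figure D3:**
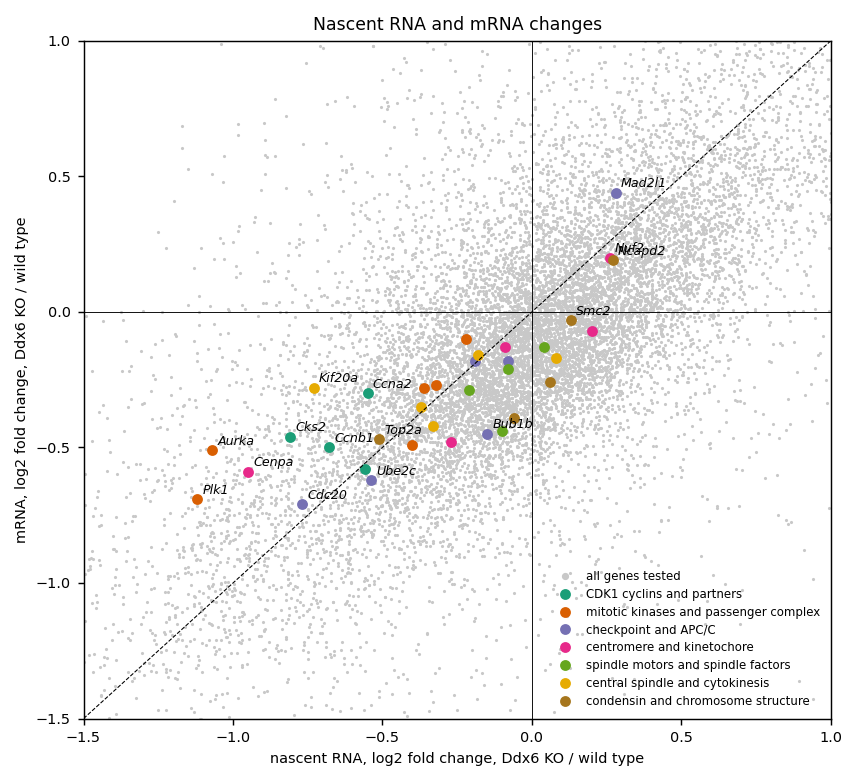
Nascent RNA against mRNA change. Each point is a gene, with the log2 fold change of *Ddx6* KO over wild type in nascent RNA on the x axis and in mRNA on the y axis; colored points are mitosis genes by role, grey points all genes tested, and genes beyond the axes are not drawn. The dashed line marks equal change. *Plk1* and *Aurka* (x of −1.12 and −1.07, y of −0.69 and −0.51) lie above the line and *Bub1b* (−0.15 and −0.45) below it.

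Total over 4sU, the measure of relative mRNA stability, ranged widely among the mitosis genes. In wild type, 25 of 35 had more total than 4sU RNA relative to the normalization and 9 had less, where 41.1% and 38.6% of all genes did. The median log2 ratio was 0.63 in wild type and 0.54 in KO, beside 0.0669 and 0.0127 for all genes, and in KO 28 were higher and 5 lower (41% and 41.2% of all genes). *Ncapd2* and *Bub1b* had the highest wild-type ratios, at 2.11 ± 0.07 and 2.00 ± 0.07 on the log2 scale, followed by *Top2a* at 1.63 ± 0.06, *Ncapg* at 1.57 ± 0.08 and *Ccnb2* at 1.54 ± 0.07, with overlapping SEs among these 3. At the other end were *Cks2* at −4.56 ± 0.16, *Ccnb1* at −1.15 ± 0.07, *Mad2l1* at −0.82 ± 0.07 and *Birc5* at −0.78 ± 0.07. *Ccnb1* and *Ccnb2*, which encode proteins of the same family, were thus at opposite ends, and *Ccnb1* has a pseudogene copy among the transcripts that match 51% of its 50-base pieces. Such matches were also found for 33.9% of pieces in *Ndc80*, 30.1% in *Plk1*, 20.4% in *Kif11*, 19.6% in *Mad2l1* and 18.2% in *Kif2c*, whose levels are to that extent uncertain, beside *Cks2*, *Cdc20* and *Ube2c* above, and for under 10% in the other mitosis genes. Ratios are relative to the normalization between assays and are no half-lives.

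**Figure D4:**
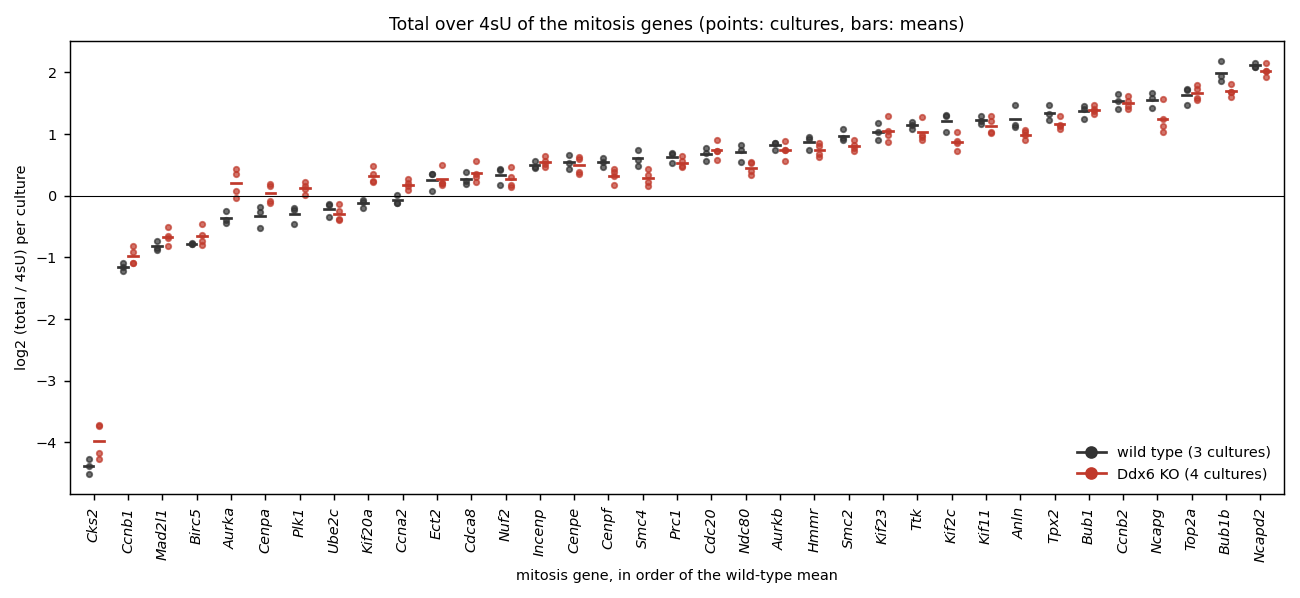
Total over 4sU of each mitosis gene in each culture. The y axis is log2 of total over 4sU CPM (with 0.5 CPM added to each), the x axis the genes in order of the wild-type mean. Black points are 3 wild-type cultures, red points 4 *Ddx6* KO cultures, and bars are means. Black and red points separate for *Aurka*, *Cenpa*, *Plk1*, *Kif20a* and *Ccna2*, with red above. They also separate for *Bub1b*, *Smc4*, *Cenpf*, *Ndc80* and *Anln*, with red below. Those of *Cks2*, with red higher, meet near −4.27, and most genes overlap.

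Between genotypes, total over 4sU changed for few mitosis genes. It rose for 5, *Ccna2*, *Plk1*, *Aurka*, *Cenpa* and *Kif20a*, and fell for 4, *Bub1b*, *Kif2c*, *Ncapg* and *Smc4*, and 26 were not called. Of all genes tested, 3.78% rose and 8.6% fell. The median log2 change of the 35 was −0.04, beside −0.0916 for all genes. *Aurka* rose most, from log2 ratios of −0.40, −0.24 and −0.44 in wild type to 0.44, 0.07, −0.04 and 0.35 in KO, a log2 change of 0.56 ± 0.11 (edgeR adjusted p = 0.000489). *Kif20a* went from −0.10, −0.20 and −0.07 to 0.48, 0.23, 0.24 and 0.36, a change of 0.45 ± 0.08 (edgeR adjusted p = 1.86e-05). *Plk1* went from −0.46, −0.23 and −0.20 to 0.16, 0.11, 0.02 and 0.22, a change of 0.43 ± 0.10 (edgeR adjusted p = 0.00178). For these 3, every KO culture lay above every wild-type culture, and the call held in all 20 alternative fits. *Cenpa* and *Ccna2* rose by a log2 ratio of 0.36 ± 0.11 and 0.25 ± 0.08 and kept the call in 15 and 14 of 20. Each of the 5 also fell in nascent RNA, and both comparisons use the same 4sU libraries.

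Apart from *Smc4*, the falls in total over 4sU were called in fewer alternative fits than any of the 5 rises. *Smc4* went from 0.58, 0.75 and 0.49 in wild type to 0.34, 0.22, 0.16 and 0.43 in KO on the log2 scale (change −0.32 ± 0.08, edgeR adjusted p = 0.00502) and was called in 18 of 20 alternative fits. *Kif2c*, *Bub1b* and *Ncapg* had changes of −0.34 ± 0.11, −0.30 ± 0.09 and −0.33 ± 0.11 and were called in 12, 10 and 7 of 20. With TMM computed within each assay, or without wild-type culture 2, the number of falls was 0 (edgeR). Within assay scaling also split the calls of all genes into 732 higher and 577 lower, 55.9% higher against 30.6%. With culture as a replicate block it was 6, adding *Cenpf* and *Anln*. Culture by culture, 6 genes lay above wild type in every KO culture, the 5 named and *Cks2*, and 5 below, against 7.43% and 15.5% of all genes. The 5 below were *Bub1b* and *Smc4*, and *Cenpf*, *Ndc80* and *Anln*, which were not called. *Kif2c* and *Ncapg* were called lower but overlapped between genotypes. No mitosis gene changed by an absolute log2 of more than 1 in total over 4sU (0.689% of all genes rose and 0.393% fell by that much).

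No mitosis gene was called different between the *Ddx6* KO clones. In clone 2 against clone 1, edgeR called 0 of 35 mitosis genes in nascent RNA, mRNA or total over 4sU, and DESeq2 and limma-voom also called 0, in fits added after the data were seen. At an unadjusted p below 0.05, edgeR gave 2 genes in nascent RNA (*Cenpa* and *Ndc80*), 1 in mRNA (*Birc5*) and 0 in total over 4sU. Of all genes, 0.0482% were called higher and 0.124% lower in clone 2 in nascent RNA, 0.103% and 0.193% in mRNA, and 0% and 0.00689% in total over 4sU. The log2 difference between clones ran from −0.23 (*Cenpa*) to 0.28 (*Cks2*) in nascent RNA and from −0.22 (*Cks2*) to 0.18 (*Birc5*) in mRNA. Each clone has only 2 cultures.

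The wider set of mitosis genes, 126 others in 6 groups taken from textbook roles, were described for comparison. Of these, 37 fell and 23 rose in nascent RNA (median log2 −0.03), and 58 fell and 13 rose in mRNA (median −0.15). The shares over all genes were 21% lower and 20.6% higher in nascent RNA and 31% lower and 19.5% higher in mRNA. In total over 4sU 9 rose and 16 fell, where 3.78% of all genes rose and 8.6% fell. By group, falls in mRNA were 19 of 37 for checkpoint, kinetochore and centromere, 13 of 29 for spindle and cytokinesis, 8 of 17 for APC/C, 10 of 21 for condensin, cohesin and separase, 5 of 12 for CDK1 and its regulators, and 3 of 10 for G2/M transcription factors, the last being near the share of all genes.

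Single genes among them show the range. *Cdk1* itself fell by 0.44 in nascent RNA and by 0.41 in mRNA on the log2 scale, with total RNA of 357 ± 10.7 CPM in 3 wild-type cultures and 268 ± 11.7 CPM in 4 KO cultures (mean ± SD). *Mybl2*, encoding B-MYB, fell by 0.82 and 0.99, from 506 ± 15.8 to 255 ± 50.2 CPM in total RNA, and *Foxm1* rose by a log2 fold change of 0.50 ± 0.08 in nascent RNA and 0.62 ± 0.07 in mRNA, from 66.8 ± 2.19 to 102 ± 4.84 CPM in total RNA. *Foxm1* lies on chromosome 6, like *Mad2l1* and *Ncapd2*. *Cdc25b*, a phosphatase that activates CDK1, had the largest change among those called in nascent RNA (log2 1.34 ± 0.18) and in mRNA (1.11 ± 0.11). *Ube2s*, which extends ubiquitin chains on APC/C substrates, fell by 1.04 and 0.92 on the log2 scale, and the APC/C subunit *Anapc13* fell by 0.92 and 0.73. In total over 4sU the largest changes among those called were −0.75 ± 0.09 for *Sgo2a*, a shugoshin that protects centromeric cohesion, and 0.73 ± 0.18 and −0.53 ± 0.14 for the centromere genes *Cenpl* and *Cenpw*.

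Of 48 DNA replication genes, 20 fell and 2 rose in nascent RNA (median log2 −0.17), and 37 fell and 1 rose in mRNA (median −0.33), a share of mRNA falls close to that of the mitosis genes. Of 28 G1/S cyclins and CDK inhibitors, 6 fell and 4 rose in nascent RNA and 9 fell and 7 rose in mRNA, with falls near the all-gene shares of 21% and 31%. In total over 4sU, 10 replication genes fell and 2 rose, where 8.6% of all genes fell and 3.78% rose. The difference between these lists was not tested.

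**Figure D5:**
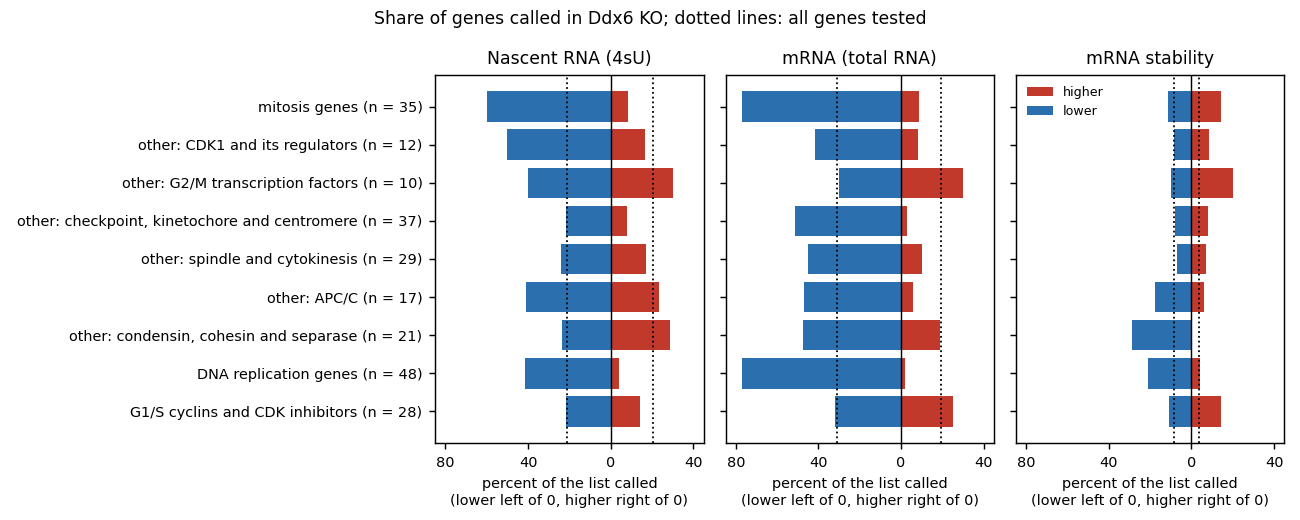
Share of each list called in *Ddx6* KO. Bars left of 0 give the percent of a list called lower and bars right of 0 the percent called higher (edgeR, adjusted p below 0.05), for nascent RNA, mRNA and total over 4sU, and dotted lines give the same over all genes tested. Among the lists, the mitosis genes (21 of 35 lower in nascent RNA and 27 of 35 in mRNA) and the 48 DNA replication genes (20 and 37 lower) reach furthest left in mRNA.

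DDX6 takes part in repression by miRNAs, and the paper gives the ESC-enriched miRNAs a common seed, AAGUGC. The 3′ UTRs of the mitosis genes were searched for the match to AAGUGCU, the 7-base form of miR-291a-3p, miR-294-3p, miR-295-3p, miR-302b-3p and miR-302d-3p. A miRNA with another base after AAGUGC is covered only by the 6-base match below. The mature miR-294-3p from RefSeq (GRCm38.p6, chr7:3220691-3220712), with the seed (bases 2 to 8) in capitals, and the only 2 sites in the 35 principal 3′ UTRs that match all 7 seed bases, with the match in capitals, were these.
mmu-miR-294-3p: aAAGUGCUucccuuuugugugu
Ect2 site, chr3:27098319-27098348, minus strand: tactttgaattAGCACTTggtaaagttgta
Smc2 site, chr4:52486768-52486797, plus strand: taattctttttAGCACTTttaaaattgcag
Thus 2 of 35 mitosis genes held AGCACTT, against 15.9% of the 11876 tested genes with a 3′ UTR, and 5 of 35 the 6-base core GCACTT, against 30.6%. Total over 4sU of *Ect2* changed by 0.02 ± 0.09 and that of *Smc2* by −0.16 ± 0.08 on the log2 scale, and neither was called (edgeR adjusted p = 0.929 and 0.223). The paper reports that miRNA targets gained translation in *Ddx6* KO with little change in mRNA stability. The libraries used here do not measure translation, so repression of these genes by miRNAs was not tested. The 5 genes whose ratio rose, *Ccna2*, *Plk1*, *Aurka*, *Cenpa* and *Kif20a*, held neither form.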

How the data were processed

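The members and gene lists were chosen with earlier results of these data known. Per the labels and the study's methods, adapters were removed by the authors (Cutadapt 1.14), reads with a single match in mm10 were kept (STAR 2.5.3a) and assigned by strand to Gencode M14 genes other than rRNA (featureCounts 1.5.3). The files deposited hold raw counts, for single-end total and 4sU runs and a paired-end re-sequencing of the 4sU libraries, and counts of the 2 runs were summed. The 92 spike-in sequences were left out. Gene lengths are those the authors deposited beside the counts.

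The filter kept genes reaching 3 CPM in 3 or more libraries, which were normalized by TMM over the 14 libraries and tested with edgeR 4.0.16 (quasi-likelihood, robust) in R 4.3.3, with genotype, assay and their interaction (stability) in one model and Benjamini-Hochberg adjustment over 14518 genes. SE is the log2 fold change over the square root of F. The rule for named genes was all members, *Cdk1*, *Foxm1*, *Mybl2*, *Ddx6*, and the 3 called genes of the other mitosis lists with the largest change in each of nascent RNA, mRNA and stability. TMM factors were 0.9227 to 0.9437 in wild type and 1.035 to 1.072 in KO. Intervals and SEs cover the spread between cultures only, and a count of 3 corresponds to 0.4071 to 1.229 CPM.

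Both libraries of a culture come from one extraction, per the study's methods. The correlation of their deviations from the group means over genes was 0.00 to 0.12, and that of same-numbered wild-type and KO cultures, which share only a number, −0.04 to 0.09.

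Alternatives were DESeq2 1.42.0, limma-voom (limma 3.58.1), TMM within each assay or without chromosome 6, library size only, 2 other filters, each 4sU run alone, each clone alone, each culture left out, and replicate blocks; alternatives for the comparison of clones were added after the data were seen. Promoters and miRNAs are from RefSeq, gene symbols, copies and 3′ UTRs (principal transcripts) from Gencode M21 on the same build.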

Additional observations from a re-analysis of the deposited data

Results flagged for a closer look

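In 105 groups of 4 *Ddx6* KO values (4sU, total and their ratio for each of 35 genes), 4 had 1 culture far from the other 3, where chance gives about 1 group in 20. Nascent *Birc5* was 201 CPM in clone 2 culture 1 and 178 to 180.5 CPM in the other 3. Nascent *Cdca8* was 77.2 CPM in clone 1 culture 1 and 94.9 to 97.2 CPM in the others. Nascent *Ect2* was 229.9 CPM in clone 2 culture 2 and 267 to 274 CPM in the others, and its log2 total over 4sU there was 0.50 against 0.17 to 0.21.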

How the results depend on the processing

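Counts of mitosis genes called lower in stability (main 4) were 1 with DESeq2, 0 with TMM within each assay, 1 with no filter beyond 1 count, 2 with the single-end run only, 2 with the paired-end run only and 2 with clone 1 only. Leaving out 1 culture gave 0 to 4, with 0 without wild-type culture 2, 1 without clone 2 culture 1 and 2 without clone 1 culture 2, and for genes called higher 3 to 5, with 3 without wild-type culture 1. With library size only, nascent counts were 8 higher and 11 lower, and *Bub1* (0.01) and *Ect2* (0.03) in nascent RNA and *Tpx2* (0.03) and *Smc2* (0.13) in mRNA changed sign with a call in one of the fits; relative to the median of all genes, the members' median was −0.22 in nascent RNA and −0.19 in mRNA, against −0.22 and −0.20. The median stability change turned positive with DESeq2 (0.0181), with TMM within each assay (0.0513) and with no filter beyond 1 count (0.00779), and lay between −0.0932 and 0.0513 over all fits. The study's call rule left 0 higher and 2 lower in nascent RNA, 0 and 0 in mRNA and 0 and 0 in stability. With culture as a replicate block stability counts were 5 higher and 6 lower, and the block changed no other count of calls in total over 4sU; the replicate number as a replicate block gave 4 higher and 19 lower in nascent RNA, 3 and 23 in mRNA and 5 and 4 in stability. The causes of these shifts were not tested. In every one of 19 alternative fits (the stricter call rule aside) 11 genes stayed lower and 2 higher in nascent RNA, and 18 lower and 2 higher in mRNA. Of 3360 single results under alternatives, 189 lost a call, 30 gained one and 4 reversed. Depth limits *Cks2* most, with as few as 13 counts.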
